A study of Mus musculus with 16 samples.

Results

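The myotubularin family is described here through *Mtm1* and 9 of its relatives, *Mtmr1*, *Mtmr2*, *Mtmr3*, *Mtmr4*, *Mtmr6*, *Mtmr7*, *Mtmr14*, *Mtmr9* and *Mtmr12*. These are the 10 of 41388 genes in the deposited count table whose symbol is on that list of names, and all 10 passed the filter on low counts in each of the 6 comparisons. Myotubularins are lipid phosphatases that remove a phosphate from the inositol ring of PI3P and PI(3,5)P2, membrane lipids that mark endosomes and autophagosomes. Loss of MTM1 in people causes X-linked myotubular myopathy, a severe muscle disease of newborn boys with small fibers and misplaced nuclei. Some family members have lost the catalytic residues and bind active members, so the family holds both enzymes and their partners.

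RNA was sequenced from quadriceps of 16 mice on a C57BL6J background, 4 mice in each of 4 groups. All were taken at postnatal day 36 by the labels, where the study's supplement gives an age 1 day lower. WT mice and *Mtm1* KO mice had standard chow with no tamoxifen. WT + TAM mice and *Mtm1* KO + TAM mice were given tamoxifen, a modulator of estrogen receptors, as its citrate at 40 mg/kg per day in sweetened chow from day 21. The *Mtm1* KO genotype, written in the labels as mtm1 -/-, is a constitutive deletion of exon 4 made by homologous recombination and carried by every cell, so the model is neither restricted to muscle nor inducible. Untreated knockout mice of this line are close to the end of their lives at the age sampled, and the muscle is already diseased. The question asked of these genes was whether relatives of *Mtm1* compensate for its loss at the RNA level, and whether tamoxifen alters them.

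The study used 14 of the 16 libraries, leaving out WT replicate 1 and KO replicate 12 without a stated reason, and the comparisons below use the same 14 (3 WT, 3 *Mtm1* KO, 4 WT + TAM and 4 *Mtm1* KO + TAM). They held 25702605 to 29847222 counts each. Levels are the deposited RPKM (the count scaled by gene length and library total) divided by the library's TMM factor, a scaling by edgeR that sets most genes equal between libraries. A gene is said to have risen or fallen where edgeR gave a p of at most 0.01 after Benjamini-Hochberg adjustment over all genes tested. Because whole muscle was sequenced, fewer cells of a type and less RNA per cell cannot be told apart in any value here.

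The library labelled WT replicate 1 stood far from the other WT libraries for the deleted gene. It held 74 counts of *Mtm1*, inside the 53 to 97 counts of the 8 knockout libraries and far below the 341 to 369 of the other 3 WT libraries. Its level of *Mtm1* was 0.273, above the 0.127 to 0.221 of the knockout libraries and below the 0.977 to 1.04 of the other 3 WT libraries. It also lay below those 3 libraries for 10 of 10 members, against 39.9% of all 14740 genes, with *Mtmr6* at 6.51 where the others ran from 15.9 to 22.1. Its muscle genes were not low: the 8 fiber markers summed to a level of 149235, above the 90720 to 118752 of the other WT libraries. KO replicate 12 held 85 counts of *Mtm1* and lay below the other *Mtm1* KO libraries for 7 of 10 members, against 38.1% of all genes. Both left-out libraries stood apart in other ways too. Their 5 red blood cell markers summed to 562 and 488, against 104 to 221 in the other WT and 87.4 to 314 in the other *Mtm1* KO libraries, and mitochondrial genes held 3.45% and 2.85% of their counts, against 3.91% to 7.30% in the 14 libraries used. Their mean r with the libraries of their group was 0.956 and 0.967, where the others had at least 0.983. What set them apart was not tested. With both libraries added, the log2 fold change of *Mtm1* between *Mtm1* KO and WT moved from -2.56 to -2.16 and its adjusted p from edgeR from 0.000214 to 0.0113, past the threshold.

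In WT muscle the family was led by *Mtmr6*, at a level of 18.5 ± 3.23 (SD, n = 3), an active enzyme found with the partner *Mtmr9*. *Mtmr3* followed at 10.3 ± 0.730, an active enzyme with a FYVE domain, and *Mtmr14*, also called Jumpy, a muscle enzyme outside the main branch of the family, stood at 6.06 ± 0.441. *Mtmr1* and *Mtmr2*, the closest relatives of *Mtm1*, stood at 4.72 ± 0.760 and 4.01 ± 0.404, and their libraries overlapped. Below these came *Mtmr9* (2.46), which is catalytically dead, *Mtmr4* (1.70), an active enzyme of endosomes, *Mtmr12* (1.44), the dead partner that stabilizes myotubularin in muscle, *Mtm1* (0.997) and *Mtmr7* (0.115). Of the 9 neighboring pairs in this order, *Mtmr1* with *Mtmr2* and *Mtmr4* with *Mtmr12* overlapped between libraries and the other 7 did not.

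The low place of *Mtm1* in that order depends on the gene length used. The length behind its deposited RPKM was 13928 bases, close to the 13935 bases of all its annotated exons together, 6 of whose 13 transcripts are retained-intron forms. The principal coding transcript, *Mtm1*-213, has 3488 bases, which makes the RPKM length 3.99 times longer, against 0.700 to 1.79 times for the other 9 members. Per length of the principal transcript, WT *Mtm1* stood at 3.98 ± 0.131 (n = 3), place 6 of 10, between *Mtmr2* at 5.21 and *Mtmr9* at 2.30. In *Mtm1* KO it stood at 0.666 ± 0.0657 on that scale, place 9, above *Mtmr7* at 0.325. Fold changes of a gene between groups are the same on either length.

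The order of the other members changed little between groups. *Mtmr6*, *Mtmr3*, *Mtmr14*, *Mtmr1* and *Mtmr2* held places 1 to 5 in each of the 4 groups by mean level on the deposited length. Per length of the principal transcript the same genes held these places, except that in *Mtm1* KO *Mtmr1* (4.81) stood above *Mtmr14* (4.64). In *Mtm1* KO the last places were *Mtmr7* at 0.181 and *Mtm1* at 0.167, which overlapped between libraries.

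**Figure D1:**
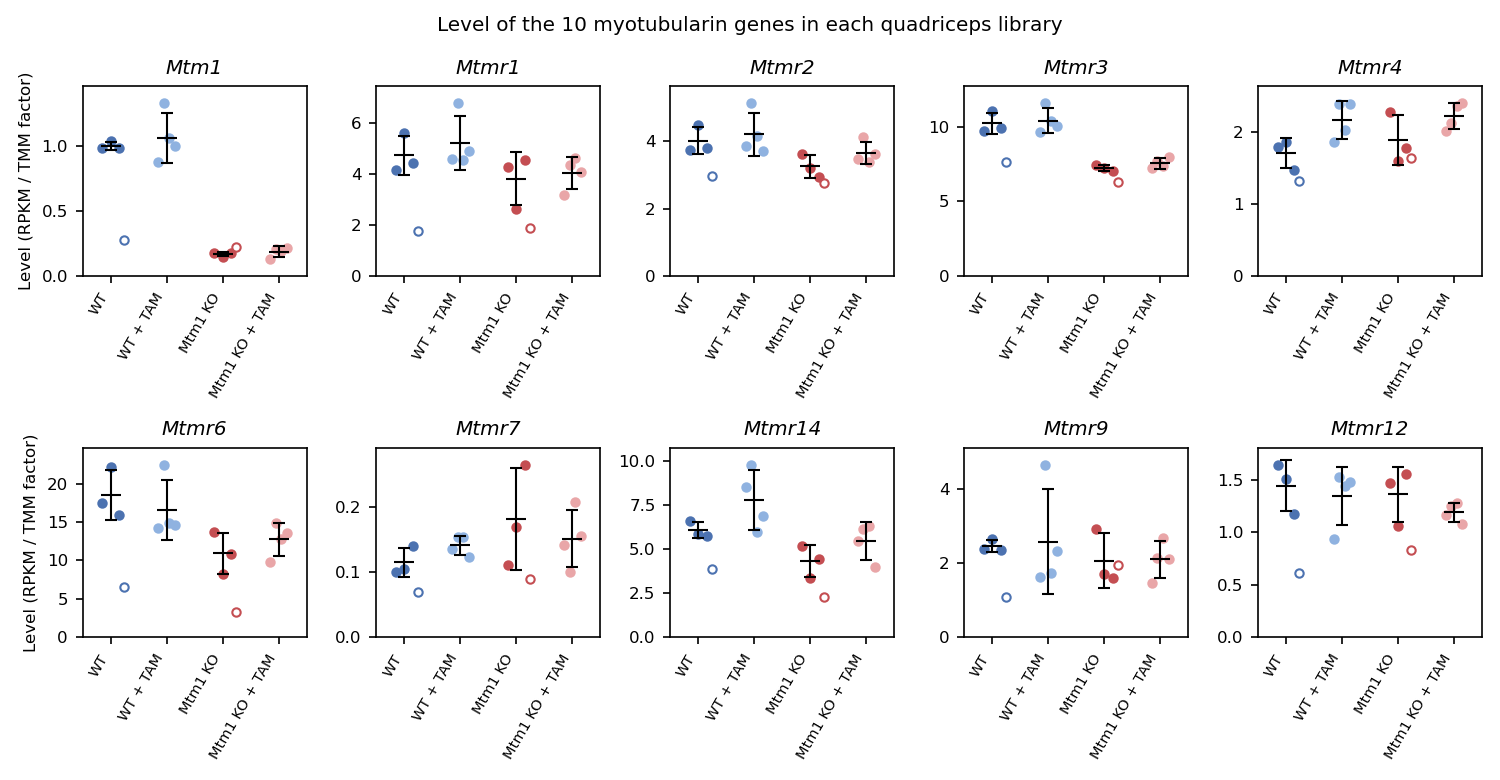
Level of each myotubularin gene (deposited RPKM divided by the TMM factor, linear axes from 0) in each library by group; filled points are the 14 libraries used, open points WT replicate 1 and KO replicate 12, black bars the mean and SD of the filled points (n = 3 or 4). *Mtm1* lay between 0.127 and 0.217 in the 7 filled knockout points and between 0.871 and 1.32 in the 7 filled wild-type points.

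*Mtm1* (ENSMUSG00000031337, chrX:71210767-71315691, plus strand, GRCm38) was compared between *Mtm1* KO and WT to see how much of its RNA remained after the deletion. Its level was 0.977, 1.04 and 0.979 in WT replicates 2 to 4. In *Mtm1* KO replicates 9 to 11 it was 0.179, 0.148 and 0.174. The groups were far apart, and each of the 3 knockout libraries still held 63 to 76 counts of the gene. *Mtm1* fell by 2.56 on the log2 scale (SE 0.17, adjusted p from edgeR 0.000214), to 0.170 of the WT level with a 95% interval of 0.131 to 0.221. By p it was place 5 among the 14740 genes tested.

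Under tamoxifen the deleted gene gave nearly the same picture. Its level was 0.871, 1.32, 1.05 and 0.993 in WT + TAM replicates 5 to 8. In *Mtm1* KO + TAM replicates 13 to 16 it was 0.127, 0.209, 0.188 and 0.217. The groups again did not overlap, with WT + TAM replicate 6 the highest of all libraries. *Mtm1* fell by 2.52 on the log2 scale (SE 0.20, adjusted p from edgeR 5.38e-05) between *Mtm1* KO + TAM and WT + TAM.

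The deleted exon makes up a small share of what the counts can see. Exon 4 of *Mtm1*-213 has 95 bases, which is 2.72% of the transcript and 0.682% of the length behind the RPKM, so reads over it could make up only a small part of the gene's counts. Its length leaves a remainder of 2 when divided by 3. Joining exon 3 to exon 5 therefore shifts the reading frame, and in the reference transcript a stop codon ends the frame after 51 of 603 codons, 6 of them past the junction. The exon is printed because it is what the knockout lacks, from GENCODE vM21 on GRCm38, chrX:71234852-71234946, plus strand, with the exon in capitals and 10 bases of the neighboring coding exons in lower case.
*Mtm1* exon 4: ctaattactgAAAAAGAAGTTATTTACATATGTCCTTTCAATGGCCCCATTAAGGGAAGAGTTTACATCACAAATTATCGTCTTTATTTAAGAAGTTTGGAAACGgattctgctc
The deposited counts are per gene, so reads over this exon cannot be told apart from reads over the other exons, and whether the remaining RNA lacks it was not tested.

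The relatives of *Mtm1* were next compared between *Mtm1* KO and WT. No relative rose, and 7 of the 9 had a negative log2 fold change, with a median of -0.28 against 0.02 over all 14740 genes tested. That direction holds for TMM scaling. Scaled by library size alone, the median of all genes moves to 0.33, and 6 of 9 relatives then have a positive log2 fold change, none past the threshold. Of the 10 members 1 passed, *Mtm1* itself, where 3.6% of all genes did (531 genes). For a rise the count was 0 of 10 members with edgeR's quasi-likelihood test against 1.91% of all genes, 0 also at an unadjusted p of at most 0.05, and 0 with DESeq2, edgeR's exact test and limma.

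The closest relatives, *Mtmr1* and *Mtmr2*, did not take a higher level in the knockout. *Mtmr1* (ENSMUSG00000015214, chrX:71364760-71419196) is the neighbor of *Mtm1* on the X chromosome and had levels of 4.15, 5.58 and 4.42 in the WT libraries. In *Mtm1* KO it had 4.26, 2.63 and 4.53, and the groups overlapped. Its ratio between *Mtm1* KO and WT was 0.820, with a 95% interval of 0.589 to 1.14 and an adjusted p from edgeR of 0.399. *Mtmr2* (ENSMUSG00000031918, chr9:13748410-13806481), the gene mutated in a form of Charcot-Marie-Tooth neuropathy, had levels of 3.75, 4.48 and 3.81 in WT and 3.62, 3.20 and 2.94 in *Mtm1* KO. All 3 knockout libraries lay below the WT libraries, by a narrow margin. Its ratio was 0.825, with an interval of 0.663 to 1.03 and an adjusted p of 0.220. The intervals of both genes thus end at 1.14 and 1.03 times the WT level under TMM scaling, and with library size only their log2 fold changes were 0.028 and 0.041.

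The more abundant enzymes of the family had negative log2 fold changes in the knockout under every alternative tried. *Mtmr3* (ENSMUSG00000034354, chr11:4480868-4594863, minus strand) had levels of 9.73, 11.1 and 9.95 in WT and 7.49, 7.23 and 7.06 in *Mtm1* KO. Its log2 fold change was -0.47 (SE 0.12, adjusted p from edgeR 0.0309). It lay lower in all 3 knockout libraries and missed the threshold, which it passed with DESeq2 (adjusted p 0.00336) and in a fit of all 4 groups (0.00536). Of all genes 11.4% and 6.34% passed in those fits, against 3.6% in the main one. By library size alone the log2 fold change of *Mtmr3* was -0.16 (adjusted p 0.294), and over its 17 alternatives it ran from -0.51 to -0.14. *Mtmr6* (ENSMUSG00000021987, chr14:60265228-60302370) had levels of 17.5, 22.1 and 15.9 in WT and 13.6, 8.27 and 10.8 in *Mtm1* KO, with a log2 fold change of -0.74 (SE 0.20, adjusted p 0.0428). Here too the groups did not overlap, and the gene passed the threshold with DESeq2 (0.00429), while over its alternatives it ran from -0.92 to -0.41 with adjusted p up to 0.357. *Mtmr14* (ENSMUSG00000030269, chr6:113237843-113281392) had levels of 6.57, 5.86 and 5.75 in WT and 5.16, 3.38 and 4.42 in *Mtm1* KO, with a log2 fold change of -0.46 (SE 0.17, adjusted p 0.106) that ran from -0.61 to -0.14 over the alternatives, with adjusted p up to 0.538.

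The libraries of *Mtm1* KO and WT did not overlap for 5 of 10 members (*Mtm1*, *Mtmr2*, *Mtmr3*, *Mtmr6* and *Mtmr14*), all lower in the knockout, where 36.2% of all genes did not overlap. With so many genes apart in this comparison, that count says little about the family by itself.

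Among the low members, *Mtmr4* and *Mtmr7* were the 2 relatives with a positive log2 fold change in *Mtm1* KO. *Mtmr4* (ENSMUSG00000018401, chr11:87592162-87616302) ran from 1.47 to 1.85 in WT and from 1.60 to 2.27 in *Mtm1* KO, and its log2 fold change was 0.17 with a 95% interval of -0.24 to 0.58 (adjusted p from edgeR 0.579), and over the alternatives it ran from 0.01 to 0.48. *Mtmr7* (ENSMUSG00000039431, chr8:40551095-40634797, minus strand), an enzyme known mainly from brain, held 11 to 16 counts a library in WT and 15 to 37 in *Mtm1* KO. Its ratio was 1.60 with an interval of 0.752 to 3.41, so no difference was detected and a sizeable one would fit inside the interval. The log2 fold change of *Mtmr7* ran from 0.13 to 0.98 over the alternatives. The catalytically dead members *Mtmr9* (ENSMUSG00000035078, chr14:63519651-63543982, minus strand) and *Mtmr12* (ENSMUSG00000039458, chr15:12205028-12274496) had log2 fold changes of -0.22 and -0.06, with adjusted p of 0.605 and 0.884 from edgeR. Over the alternatives these ran from -0.55 to 0.09 and from -0.19 to 0.25, so the direction of neither was settled. *Mtmr12* turned to 0.041 without WT replicate 2, to 0.10 without KO replicate 10, and to 0.014 with all 16 libraries.

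The same contrast in treated mice, *Mtm1* KO + TAM against WT + TAM, asked whether the family differs by genotype under tamoxifen. *Mtm1* and *Mtmr3* fell, 2 of 10 members where 6.72% of all 14563 genes passed. For a rise the count with edgeR's quasi-likelihood test was 0 of 10 against 3.42% of all genes, 0 also at an unadjusted p of at most 0.05 and with DESeq2, the exact test and limma. Under TMM scaling 7 of 9 relatives again had a negative log2 fold change, with a median of -0.29 against -0.01 over all genes. With library size only the median of all genes moves to 0.27 and 4 of 9 relatives are positive. The same 2 genes were the members whose libraries did not overlap, against 22.5% of all genes.

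*Mtmr3* had levels of 9.67, 11.6, 10.4 and 10.1 in WT + TAM replicates 5 to 8 and 7.22, 7.69, 7.37 and 8.01 in *Mtm1* KO + TAM replicates 13 to 16. Every treated knockout library lay below every treated WT library. Its log2 fold change was -0.46 (SE 0.10, adjusted p from edgeR 0.00956), just inside the threshold. Leaving out any of these 8 libraries, WT + TAM replicates 5 to 8 or KO + TAM replicates 13 to 16, took the adjusted p to between 0.0106 and 0.0404 and the log2 fold change to between -0.50 and -0.41. Scaled by library size alone, the log2 fold change was -0.18 and the adjusted p 0.255.

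*Mtmr6* had levels of 14.3, 22.5, 14.9 and 14.6 in WT + TAM and 9.75, 14.8, 12.9 and 13.6 in *Mtm1* KO + TAM. The groups overlapped, and the WT + TAM libraries other than replicate 6 lay close together just above most treated knockout libraries. Its log2 fold change was -0.37 (adjusted p from edgeR 0.162) and ran from -0.45 to -0.08 over the alternatives, with adjusted p up to 0.783. *Mtmr14* had levels of 8.51, 9.77, 5.95 and 6.85 in WT + TAM and 5.44, 6.14, 6.32 and 3.97 in *Mtm1* KO + TAM, with a log2 fold change of -0.50 (adjusted p 0.0862; -0.61 to -0.19 over the alternatives). It overlapped through WT + TAM replicate 7. For the closest relatives, *Mtmr1* ran from 4.55 to 6.76 in WT + TAM and from 3.15 to 4.61 in *Mtm1* KO + TAM, and *Mtmr2* from 3.71 to 5.13 and from 3.38 to 4.13. Their ratios between genotypes were 0.780 for *Mtmr1* (95% interval 0.611 to 0.994, adjusted p from edgeR 0.146) and 0.869 for *Mtmr2* (0.711 to 1.06, adjusted p 0.320). Over the alternatives their log2 fold changes ran from -0.42 to -0.06 and from -0.27 to 0.08, so that of *Mtmr2* turned positive in some. The remaining 4 relatives had log2 fold changes from -0.29 (*Mtmr9*) to 0.11 (*Mtmr7*), with adjusted p from 0.556 to 0.864. Of these, *Mtmr7* was at -0.082 without KO + TAM replicate 15, *Mtmr4* went from 0.04 to -0.026 without WT + TAM replicate 5, and *Mtmr9* from -0.29 to 0.15 without WT + TAM replicate 6.

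**Figure D2:**
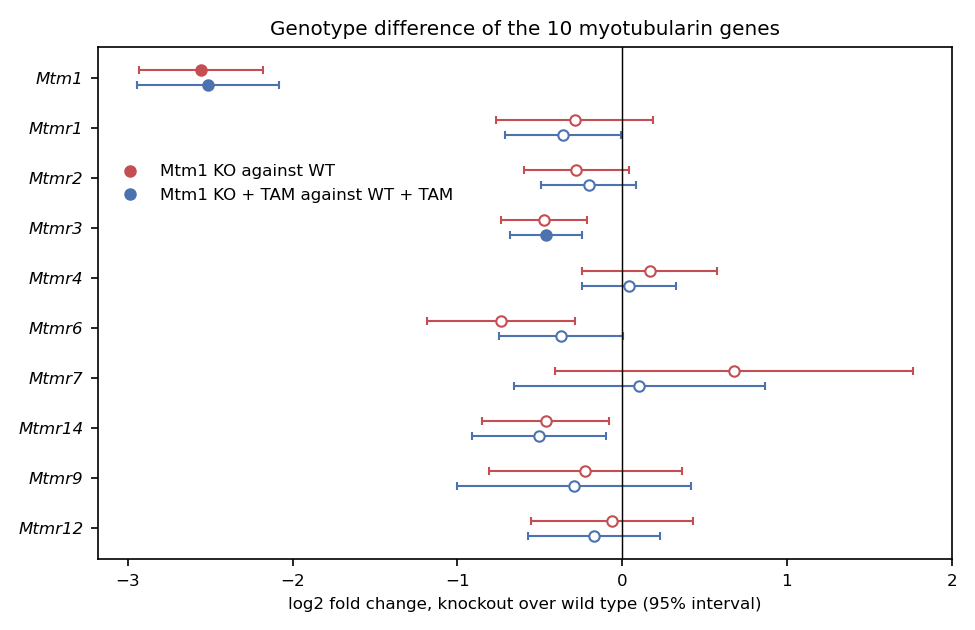
The log2 fold change of each myotubularin gene between genotypes from edgeR with TMM scaling, untreated in red and treated in blue, with 95% intervals; filled points passed an adjusted p of at most 0.01. *Mtm1* lay near -2.5 in both, and 7 of 9 relatives lay left of 0 in both, which with library size as the only scaling is 3 of 9 untreated and 5 of 9 treated.

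Averaging the genotype difference over both treatments in a fit of all 14 libraries gave the most precise values. This contrast shares its libraries with the ones above and is no separate evidence. Here *Mtm1*, *Mtmr3* and *Mtmr6* fell, 3 of 10 members where 19.4% of all 15556 genes passed. For a rise the count was 0 of 10 with edgeR's quasi-likelihood test, against 8.99% of all genes, and 0 at an unadjusted p of at most 0.05, with DESeq2 and with limma. Scaled by library size alone, where the median of all genes is 0.31, *Mtmr4* has a log2 fold change of 0.40 and an adjusted p of 0.00974, the only relative higher past the threshold in a genotype contrast under the alternatives tried.

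*Mtmr3* fell by 0.48 on the log2 scale in this contrast (SE 0.07, adjusted p from edgeR 0.000108), to 0.717 of the wild-type level with an interval of 0.647 to 0.794. *Mtmr6* fell by 0.57 (SE 0.14, adjusted p 0.00665), to 0.675 with an interval of 0.548 to 0.832. Both are lower relative to most genes, while with library size only their log2 fold changes were -0.17 and -0.25, with adjusted p of 0.0733 and 0.169. The call for *Mtmr6* was also lost with all 16 libraries (adjusted p 0.105) and without any of 7 single libraries: WT replicates 2 (0.0115) or 3 (0.0229), WT + TAM replicate 6 (0.0108), KO replicates 10 (0.0217) or 11 (0.0168), or KO + TAM replicates 13 (0.0140) or 15 (0.0129). *Mtmr14* came next at -0.50 (SE 0.14, adjusted p 0.0119), and it ran from -0.57 to -0.17 over the alternatives, with adjusted p up to 0.316. It passed with DESeq2 (0.00451), without a filter on low counts (0.00927), and without WT + TAM replicate 7 (0.00653) or KO replicate 9 (0.00796). Of all genes 25.3%, 12.7%, 17.2% and 18.9% passed in those fits.

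The other relatives did not pass in the averaged contrast. *Mtmr1* had a ratio of 0.792 (95% interval 0.645 to 0.974, adjusted p from edgeR 0.0766) and *Mtmr2* of 0.839 (0.730 to 0.966, adjusted p 0.0525). Those intervals hold for TMM scaling: by library size alone the log2 fold change of *Mtmr1* was -0.02 and that of *Mtmr2* turned to 0.06, as it did in both limma fits (0.06 and 0.05). *Mtmr4* had a ratio of 1.07 (0.911 to 1.25) and *Mtmr7* of 1.30 (0.862 to 1.96). Under TMM scaling, then, a gain of over 1.25 times lies outside the intervals of 8 of the 9 relatives in this averaged contrast. *Mtmr7*, with the fewest counts, is the exception. The single contrasts do not give that bound. Besides that of *Mtmr7*, intervals reached 1.49 (*Mtmr4*), 1.35 (*Mtmr12*) and 1.29 (*Mtmr9*) untreated, and 1.34 (*Mtmr9*) and 1.254 (*Mtmr4*) treated.

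Added together, the 9 relatives did not make up a higher total in the knockout. Their summed level was 49.3 ± 5.34 (SD, n = 3) in WT and 35.1 ± 5.85 (n = 3) in *Mtm1* KO. With tamoxifen it was 50.4 ± 9.38 (n = 4) in WT + TAM and 39.2 ± 3.86 (n = 4) in *Mtm1* KO + TAM. Untreated WT libraries ran from 45.0 to 55.2 and *Mtm1* KO libraries from 29.2 to 40.9, and treated ones from 45.3 to 64.4 and from 33.8 to 42.7, so the genotypes did not overlap in either pair under TMM scaling. Most of that sum is *Mtmr6* and *Mtmr3*. Summed as deposited, without the TMM factors, the means were closer, at 44.9, 40.4, 46.0 and 43.6 for WT, *Mtm1* KO, WT + TAM and treated *Mtm1* KO mice. On that scale the genotypes overlapped in both pairs: WT libraries ran from 41.8 to 47.3 and *Mtm1* KO libraries from 34.4 to 47.9, and treated ones from 40.7 to 59.7 and from 35.0 to 49.0. *Mtm1* itself made up 1.99% of the family's summed level in WT and 0.478% in *Mtm1* KO, or 6.74% and 1.66% per length of the principal transcript. No test was made on these sums over members.

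Tamoxifen was compared in knockout mice, *Mtm1* KO + TAM against *Mtm1* KO, to see whether the drug altered the family in diseased muscle. Of the 10 members 0 passed with edgeR's quasi-likelihood test, where 0% of 15062 genes passed, and 0 members had an unadjusted p of at most 0.05, against 7.55% of all genes (1137). DESeq2 and the exact test called 72 genes each and 0 members, and limma 0 genes. *Mtm1* had a log2 fold change of 0.14 with a 95% interval of -0.43 to 0.70 (adjusted p from edgeR 0.945). The relatives ran from -0.27 (*Mtmr7*) to 0.33 (*Mtmr14*), and the 95% interval of *Mtmr3*, the narrowest, was -0.19 to 0.29.

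In WT mice, WT + TAM against WT, 0 of 10 members passed with edgeR's quasi-likelihood test where 0.131% of 14544 genes did (19 genes), and 0 members passed with DESeq2, the exact test or limma. At an unadjusted p of at most 0.05 there was 1 member, *Mtmr4*, against 10.7% of all genes (1549). *Mtmr4* had levels of 1.79, 1.85 and 1.47 in WT and 1.86, 2.38, 2.02 and 2.38 in WT + TAM. Its treated libraries all lay above the WT libraries, the lowest by a small margin, with a log2 fold change of 0.34 (SE 0.15, adjusted p from edgeR 0.468). It was the 1 member of 10 whose libraries did not overlap, where 1682 of all 14544 genes did not. The other members ran from -0.16 (*Mtmr6*) to 0.35 (*Mtmr14*). Much of what was positive here came from WT + TAM replicate 6, the highest library of that group for 9 of 10 members: without it 3 of 9 relatives had a positive log2 fold change in place of 7.

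Whether tamoxifen acted differently in the genotypes was tested by the difference of its effects, *Mtm1* KO minus WT. With edgeR's quasi-likelihood test 0 of 10 members passed, where 0% of 15556 genes did, and 0 members had an unadjusted p of at most 0.05, against 4.27% of all genes (664). DESeq2 called 12 genes and limma at most 1, none of them a member. The differences ran from -0.55 (*Mtmr7*) to 0.39 (*Mtmr6*) on the log2 scale, with an adjusted p of 1 for each. For *Mtm1* the difference was 0.06 with a 95% interval of -0.50 to 0.63.

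The coding sequences of the members were compared with that of *Mtm1* as a description. Aligned over coding sequence from GENCODE vM21, the translated *Mtmr2* is identical to *Mtm1* at 63.5% of 600 aligned residues and *Mtmr1* at 59.2% of 593. The other main-branch members range from 30.4% (*Mtmr12*) to 39.5% (*Mtmr3*), and *Mtmr14* aligns over 28 residues only. The 2 most similar relatives are therefore not the ones with the largest differences in the knockout.

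The catalytic site separates enzymes from dead members. Active myotubularins carry a cysteine and an arginine with 5 residues between them. Whether any relative can act in place of *Mtm1* as an enzyme was not tested. The 21 coding bases of the catalytic site are printed because they show which relatives carry both codons. The codons of the cysteine and the arginine are in capitals. All sequences are from GENCODE vM21 on GRCm38 and read along the coding strand: chrX:71299637-71299657 (*Mtm1*, plus), chrX:71401797-71401817 (*Mtmr1*, plus), chr9:13799945-13799965 (*Mtmr2*, plus), chr11:4492779-4492799 (*Mtmr3*, minus), chr11:87604102-87604122 (*Mtmr4*, plus), chr14:60293420-60293440 (*Mtmr6*, plus), chr8:40562639-40562659 (*Mtmr7*, minus) and chr6:113265993-113266013 (*Mtmr14*, plus). For *Mtmr9* (chr14:63529821-63529841, minus) and *Mtmr12* (chr15:12261911-12263744, plus, across the junction of exons 12 and 13) the stretch aligned to that of *Mtm1* is shown, with the codons at the same places in capitals.
*Mtm1*: TGCagtgacggatgggacAGG
*Mtmr1*: TGCagtgatgggtgggatCGA
*Mtmr2*: TGCagtgatggatgggatCGC
*Mtmr3*: TGCtccgatggctgggatCGG
*Mtmr4*: TGCtctgacggctgggacCGT
*Mtmr6*: TGTtccgatgggtgggacAGG
*Mtmr7*: TGTtctgacggctgggacAGA
*Mtmr14*: TGTatctcaggctgggacCGG
*Mtmr9*: GGGacagaaggaactgatTCC
*Mtmr12*: GAAgagaatgcttctgatCTC
*Mtmr1*, *Mtmr2*, *Mtmr3*, *Mtmr4*, *Mtmr6* and *Mtmr7* encode the same 7 residues as *Mtm1* here, and *Mtmr14* encodes 5 of the 7. *Mtmr9* encodes 2 and *Mtmr12* 1, and neither has the cysteine or arginine codon. In the averaged contrast 3 of the 8 genes with the site passed with edgeR, *Mtm1* among them, and 0 of the 2 without it (0 at an unadjusted p of at most 0.05 and with DESeq2 or limma), where 19.4% of all genes passed. With 2 genes that count says nothing about the dead members as a class.

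Sequence shared with other annotated transcripts was looked for in the principal transcripts of the members, and little was found there. For *Mtm1* that transcript has 3488 bases, where the length behind its RPKM was 13928, and the rest was not searched. No stretch of 50 bases in the principal transcripts was shared between members. *Mtmr2* shared 6.82% of its stretches with the processed pseudogenes *Gm4880*, *Gm5997* and *Gm8314*, and *Mtmr3* 1.48% with *Gm5043*. *Mtmr7* overlaps 40 exonic bases of *Vps37a* on the other strand, 0.898% of its exons.

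Genes around *Mtm1* on the X chromosome were examined as a check on its surroundings. Of the 10 tested genes nearest to it, 5 on each side, 1 fell in *Mtm1* KO, where 3.6% of all genes passed in either direction. It was *Tmem185a*, at -1.08 (adjusted p from edgeR 0.00717). The same gene fell by 0.88 (0.00394) in the treated contrast, where 6.72% of all genes passed. The median of the 10 genes in *Mtm1* KO was -0.14, with 5 of 10 positive. *Mtmr1*, 49.1 kb past the end of *Mtm1*, is the first of them on that side, and *Mamld1*, 54.7 kb before it, the first on the other, at 0.46 (adjusted p 0.286) untreated and -0.68 (0.0706) treated. The largest log2 fold change of the 10 was that of *Gpr50*, -2.95 (0.0304), which had too few counts to be tested in the treated contrast. The remaining genes were *Gm14698*, *Ids*, *1110012L19Rik*, *Cd99l2*, *Hmgb3* and *Vma21*.

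Across the 14 libraries, the gene pattern most like that of *Mtm1* was that of *Stat5b* (Pearson r = 0.977 on log2 CPM, counts scaled by library total and TMM factor), followed by *Mtmr3* (0.976), *Gid4* (0.972), *Rxra* (0.969) and *Uaca* (0.968), among 15556 genes. These r describe mainly the gap between genotypes that the libraries share. After subtracting each group's mean, r with *Mtm1* was 0.39 for *Stat5b*, 0.73 for *Mtmr3*, 0.74 for *Gid4*, 0.70 for *Rxra* and 0.41 for *Uaca*. Within groups, *Mtmr6* (0.83), *Mtmr1* (0.74) and *Mtmr9* (0.71) had r with *Mtm1* as high or nearly so, so *Mtmr3* did not stand apart there. The genes most like *Mtmr3* were *Speg* (0.985), *Prkar2a* (0.980), *Scn4a* (0.979), *Mstn* (0.979) and *Dennd4b* (0.978), and within groups 0.92, 0.94, 0.79, 0.76 and 0.75. Among the members themselves, the highest r within groups over the 14 libraries was 0.88, for *Mtmr1* with *Mtmr6*, and the lowest -0.44, for *Mtmr2* with *Mtmr7*.

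Other genes of the pathway were read from the same fit for context. Of 4 family genes outside the members (*Sbf1*, *Sbf2*, *Mtmr10* and *Mtmr11*), 0 passed in either genotype contrast with edgeR, with 1 of 4 at an unadjusted p of at most 0.05 untreated and 3 of 4 treated, where 30.1% and 32.3% of all genes reached that p. In the averaged contrast 1 of the 4 fell and 3 reached that p, against 43.7% of all genes. *Sbf1*, a dead member that binds *Mtmr2*, had log2 fold changes of -0.33 and -0.49 (adjusted p 0.125 and 0.0131). Of 11 genes that make PI3P or PI(3,5)P2, 10 were tested and *Vac14*, the scaffold of the PI(3,5)P2 kinase complex, rose in both contrasts, by 0.85 (adjusted p 0.00475) and 0.89 (0.00135). This was 1 of 10 in each, where 3.6% and 6.72% of all genes passed. At an unadjusted p from edgeR of at most 0.05 there were 1 and 3 of the 10. In the averaged contrast 1 of the 10 rose and 3 reached that p. *Pik3c3*, the kinase that makes PI3P, was at -0.09 (adjusted p 0.680) in the untreated contrast.

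Of 16 genes that read PI3P on membranes, 0 passed in either contrast with edgeR, with 5 of 16 at an unadjusted p of at most 0.05 in each, near the share of all genes, and *Snx3*, the most abundant, was at -0.03 untreated (adjusted p 0.898). In the averaged contrast 2 of the 16 rose and 2 fell. Of 9 other phosphoinositide enzymes 0 passed in either, with 4 and 2 at an unadjusted p of at most 0.05, and *Sacm1l*, the most abundant, was at -0.26 (0.394), and 1 of the 9 fell in the averaged contrast. Among 7 genes of centronuclear myopathy and muscle partners of myotubularin, 2 passed in both contrasts, where 3.6% and 6.72% of all genes did, with 4 and 5 of the 7 at an unadjusted p of at most 0.05. *Des*, the intermediate filament desmin that binds myotubularin, rose by 0.98 (adjusted p 0.00832) and 0.90 (0.00416), and *Speg*, a kinase that binds myotubularin, fell by 0.84 (0.00998) and by 0.79 (0.00397). *Dnm2* and *Bin1*, whose changes in dose modify the disease in mice, were at 0.26 (0.162) and 0.20 (0.503) untreated. Over these 47 genes, 46 tested, 2 rose and 1 fell in each contrast, with medians of -0.07 and -0.09. In the averaged contrast 4 rose and 6 fell, 10 of 46 where 19.4% of all genes passed.

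Markers of muscle fibers moved with genotype beside these values. The 8 skeletal muscle fiber markers, all found, with *Acta1* the most abundant and none at 0, summed to a level of 90720, 118752 and 92662 in WT replicates 2 to 4 and 52604, 56198 and 62804 in *Mtm1* KO replicates 9 to 11. In treated mice they summed to 104119, 89091, 99201 and 96903 in WT + TAM replicates 5 to 8 and 73256, 55223, 45565 and 61182 in *Mtm1* KO + TAM replicates 13 to 16. The labelled tissue was thus plain in every library, with a lower sum in the knockouts. In the 7 wild-type libraries the top 10 genes held 23.6% to 27.6% of all counts, and in the 7 knockout libraries at most 19.0%. The TMM factors differed with it, at 0.857 to 0.956 in wild-type and 1.03 to 1.19 in knockout libraries. The part of this composition in the lower levels of *Mtmr3* and *Mtmr6* was not tested. Of the fiber markers, 0 passed untreated with edgeR (5 of 8 at an unadjusted p of at most 0.05), and *Ckm*, *Myh4* and *Pvalb* fell in the treated contrast, to 0.549, 0.423 and 0.499 of the WT + TAM level. The list split: *Mb*, *Myh1* and *Myh2* had positive log2 fold changes that did not pass, of 0.62, 0.97 and 1.21 untreated (adjusted p from edgeR 0.525, 0.173 and 0.467) and 1.00, 0.78 and 1.51 treated (0.0631, 0.0429 and 0.0200).

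Of the 4 immune markers tested, 0 passed with edgeR, with 3 at an unadjusted p of at most 0.05 in each genotype contrast, and *Cd68*, the most abundant, had a log2 fold change of 1.39 in *Mtm1* KO (adjusted p 0.0234). The 4 satellite cell markers, led by *Chodl*, summed to 4.82 to 7.49 in WT, 6.03 to 10.9 in *Mtm1* KO, 6.97 to 7.73 in WT + TAM and 3.49 to 6.31 in *Mtm1* KO + TAM. Most of that sum was *Chodl*, at 0.78 untreated (adjusted p from edgeR 0.0702), and the other 3 markers had negative log2 fold changes, with *Pax7* at -1.39 (0.0161) and *Myf5* at -0.23 (0.826). *Calcr*, a marker of quiescent satellite cells, fell by 4.55 in *Mtm1* KO (adjusted p from edgeR 0.00521) and was at 0 in KO replicate 10 and the left-out KO replicate 12. It lay low in WT too, where *Chodl* alone held 4.86, 5.69 and 3.67 of sums of 7.26, 7.49 and 4.82 in replicates 2 to 4. Between the knockout groups only 3 of the 4 markers passed the filter on low counts. At levels this low the size of the fall of *Calcr* is poorly determined. No marker of fat cells, endothelial cells, fibroblasts, Schwann cells or red blood cells (5 each) passed in either genotype contrast with edgeR, and at an unadjusted p of at most 0.05 the largest number was 4 of 5, for fibroblasts untreated. In the averaged contrast, where *Mtmr3* and *Mtmr6* fell, markers of several cell types moved as well: 2 of 5 fibroblast, 2 of 4 immune and 1 of 5 Schwann cell markers rose, and 5 of 8 fiber and 2 of 4 satellite cell markers fell, with none past the threshold for endothelial (2 at an unadjusted p of at most 0.05), fat or red blood cells (0), against 8.99% of all genes rising and 19.4% passing in either direction. Any part of these cell types in the members' values was not tested.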

How the data were processed

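The authors aligned reads to GRCm38 with STAR 2.5.0c and counted genes with HTSeq, and deposited a table of raw counts and a table of RPKM for 16 libraries. The settings of HTSeq are not stated. The deposited RPKM followed counts over library totals within 0.265% over the 6832 genes with enough counts for this check. Counts were fitted across all genes with edgeR 4.0.16 in R 4.3.3 (TMM, filterByExpr with a minimum count of 10 and total of 15, quasi-likelihood test, adjusted p of at most 0.01), pairwise for 4 comparisons and in a fit of 4 groups for 2. Alternatives were DESeq2 1.42.0, limma 3.58.1, edgeR's exact test, other scalings, filters and libraries. The procedure was tested on simulated data, and no value here rests on the outcome of that test. Intervals are 95% intervals from the fit. Named genes were all 10 members; of the other lists, every gene called in *Mtm1* KO vs WT or *Mtm1* KO + TAM vs WT + TAM and up to 3 abundant ones; 10 neighbors of *Mtm1*; and the 5 most similar patterns. Annotation and sequences are from GENCODE vM21, read with Biopython 1.88. Members and lists were chosen with earlier results of these data known.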

Additional observations from a re-analysis of the deposited data

Results flagged for a closer look

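Of 40 groups of 4 libraries, 10 members in each of 4 groups with all 16 libraries included, 4 held a library far from the other 3. Chance alone sets about 1 in 20 such groups apart. *Mtm1* in WT replicate 1 had a level of 0.273, where the other WT libraries lay between 0.977 and 1.04. *Mtmr1* in WT + TAM replicate 6 had a level of 6.76, where the other WT + TAM libraries lay between 4.55 and 4.88. *Mtmr6* in the same library had a level of 22.5, against 14.3 to 14.9 in the other WT + TAM libraries. *Mtmr12* in WT + TAM replicate 5 had a level of 0.935, against 1.44 to 1.53 in the others.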

How the results depend on the processing

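Of 1153 log2 fold changes of members under the alternatives, besides that of *Mtm1* between *Mtm1* KO and WT, 1032 kept their direction and their side of the threshold, 27 lost a call, 8 gained 1 and 86 changed sign. None of those that changed sign had been called. *Mtm1* in *Mtm1* KO against WT ran from -2.60 to -0.68 over 17 alternatives and passed in 16, the exception being all 16 libraries (-2.16). Members called in *Mtm1* KO against WT went from 1 to 3 with DESeq2 (*Mtm1*, *Mtmr3*, *Mtmr6*) and at an adjusted p of at most 0.05. They went to 0 with all 16 libraries, where *Mtm1* missed at 0.0113, and to 2 in a fit of 4 groups. The share of all genes moved too, from 3.6% to 11.4% with DESeq2 and 12.8% at 0.05. It was 1.44% with all 16 libraries and 6.34% in the fit of 4 groups. In the treated contrast the members called went from 2 to 1 (*Mtm1*) with RLE size factors, library size only, no filter and both limma fits. Of all genes 6.72%, 12.9%, 5.43%, 11.6% and 11.1% passed in those, against 6.72% in the main fit. Every leave-one-out fit called 1 member, where 2.88% to 6.2% of all genes passed. In the averaged contrast 1 member was called in both limma fits, where 32.6% and 32.5% of all genes passed against 19.4% in the main fit. The cause of these changes was not tested. Sums and shares over the family with other lengths, as deposited or with 16 libraries were alternatives chosen after seeing the data: the sum without *Mtm1* was 55.4 per principal transcript and 43.4 with all 16 libraries in WT, and 44.2 per principal transcript and 43.6 as deposited in *Mtm1* KO + TAM, and the share of *Mtm1* was 6.74% and 1.76% in WT (principal transcript, 16 libraries), 6.93% in WT + TAM, 1.66% and 0.618% in *Mtm1* KO and 1.63% in *Mtm1* KO + TAM.

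Of the 86 sign changes, 40 came from leaving out 1 library, 6 from all 16 libraries, 11 from library size only and 14 and 15 from the limma fits, which change test, unit and scaling together. With library size only the values were 0.028 (*Mtmr1*), 0.041 (*Mtmr2*), 0.093 (*Mtmr9*) and 0.25 (*Mtmr12*) in *Mtm1* KO against WT, 0.076 (*Mtmr2*) and 0.11 (*Mtmr12*) treated, 0.059 (*Mtmr2*), 0.044 (*Mtmr9*) and 0.18 (*Mtmr12*) averaged, -0.020 (*Mtmr9*) for tamoxifen in *Mtm1* KO, and -0.024 (*Mtmr3*) for the difference of tamoxifen effects. With limma on log2(RPKM + 0.1) they were 0.033 (*Mtmr2*), 0.034 (*Mtmr9*) and 0.23 (*Mtmr12*) untreated, 0.081, 0.084 and 0.12 for the same genes treated, 0.057, 0.059 and 0.17 averaged, -0.0091 (*Mtmr9*) for tamoxifen in *Mtm1* KO and -0.059 (*Mtmr9*) in WT, and -0.012 (*Mtm1*), -0.021 (*Mtmr3*) and 0.050 (*Mtmr9*) for the difference. With limma on log2(RPKM + 1) they were 0.0029 (*Mtmr1*), 0.028 (*Mtmr2*), 0.035 (*Mtmr9*) and 0.15 (*Mtmr12*) untreated, 0.065 (*Mtmr2*), 0.046 (*Mtmr9*) and 0.067 (*Mtmr12*) treated, 0.047, 0.041 and 0.11 for the same genes averaged, -0.0076 (*Mtmr9*) for tamoxifen in *Mtm1* KO and -0.019 (*Mtmr9*) in WT, and -0.023 (*Mtm1*), -0.019 (*Mtmr3*) and 0.011 (*Mtmr9*) for the difference. With all 16 libraries they were 0.014 (*Mtmr12*) untreated, 0.10 (*Mtmr6*) and 0.12 (*Mtmr12*) for tamoxifen in WT, and -0.34 (*Mtm1*), -0.011 (*Mtmr3*) and 0.028 (*Mtmr14*) for the difference.

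Leaving out single libraries gave ranges that cross 0 for small differences: -0.19 to 0.10 (*Mtmr12*) untreated; -0.026 to 0.10 (*Mtmr4*), -0.46 to 0.15 (*Mtmr9*) and -0.082 to 0.26 (*Mtmr7*) treated. For tamoxifen in *Mtm1* KO they were -0.13 to 0.22 (*Mtmr1*), -0.14 to 0.35 (*Mtmr9*) and -0.52 to 0.11 (*Mtmr7*). For tamoxifen in WT they were -0.025 to 0.079 (*Mtmr3*), -0.23 to 0.030 (*Mtmr12*), -0.033 to 0.16 (*Mtm1*), -0.0098 to 0.27 (*Mtmr1*), -0.036 to 0.15 (*Mtmr2*) and -0.37 to 0.23 (*Mtmr9*). For the difference they were -0.26 to 0.10 (*Mtmr1*), -0.026 to 0.090 (*Mtmr3*), -0.16 to 0.13 (*Mtmr14*), -0.24 to 0.040 (*Mtmr12*), -0.021 to 0.21 (*Mtm1*), -0.21 to 0.40 (*Mtmr9*) and -0.21 to 0.053 (*Mtmr4*).

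The exact test could not be fitted to the contrasts over 4 groups, and adding the left-out libraries adds none to the treated contrast. No paired analysis was possible because no 2 groups share a replicate number and the labels record no litter, although the study's supplement says that the mice were littermates. With 11 to 37 counts a library, depth limits *Mtmr7* most.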
